A study of Mus musculus with 48 samples.

Results

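Gene expression in the frontal cortex was compared between Per3 4/4 mice and wild-type (WT) mice after 12 h of sleep deprivation. The 16 arrays concerned, out of 48 in the series, were chosen by their labels alone: 8 frontal cortex arrays of genotype Coach, which is Per3 4/4, and 8 of genotype WT, 1 array per mouse. Per3 4/4 mice were homozygous for a knock-in in which human PER3 exon 18 with 4 copies of the coding repeat replaced the mouse exon. WT mice were homozygous for mouse Per3 and came from the same conditional line, and mice of neither group carried Cre. The background was C57BL/6, the gene was targeted in Bruce4 embryonic stem cells, and each genotype was bred as its own homozygous line. All mice were sleep deprived, so a difference between genotypes could be measured, and a response to sleep loss could not. The remaining genotype, Per3 5/5 (8 cortex arrays), entered the fit to share the estimate of the spread. Where a fit held scan day or array brightness, the Per3 5/5 arrays also helped to set those terms. Differences from such fits therefore rest in part on Per3 5/5. These arrays also counted in the choice of the probe that stood for a gene. Each p-value measures the spread between these mice within 1 line per genotype.

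PER3 is one of the Period proteins of the circadian clock, in which CLOCK and BMAL1 activate transcription and the Period and Cryptochrome proteins inhibit it. Primates carry a variable number of repeats in the coding region of PER3, which rodents lack, and in humans the repeat number has been studied for its relation to sleep need. Prolonged wakefulness is known to alter many transcripts of the cortex, among them those of synaptic signalling, protein synthesis, protein folding and energy metabolism. The functional lists described here cover those themes and other families, among them zinc finger proteins, collagens, olfactory receptors and the Notch and Wnt pathways.

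The arrays of the 2 genotypes differed in brightness and in scan day. The intensity at the 75th percentile averaged 744.8 ± 266.9 (SD, n = 8, range 324.5 to 1102) in Per3 4/4 and 1266 ± 179.7 (SD, n = 8, range 972.8 to 1463) in WT. Probes well above background numbered 27850 to 31587 on Per3 4/4 arrays and 29311 to 32165 on WT arrays, and no spot was saturated. Per3 4/4 arrays were scanned on day 1 (replicates 1 to 4), day 2 (5 to 7) and day 3 (8), and WT arrays on day 2 (replicates 1 to 5) and day 3 (6 to 8), so no WT array shared day 1. All 18 excitatory cortical neuron markers were well above background on all 16 arrays. The same held for 11 of 15 hypothalamic, 6 of 12 choroid plexus, 11 of 12 striatal and 9 of 9 thalamic markers. The hypothalamic markers Nkx2-1, Otp and Sim1 were not well above background in either genotype. Nor were the choroid plexus markers Cldn2, Kcne2, Otx2, Tmem72 and Ttr. The share of other brain regions in the samples was not tested. The brighter probe of the Y-linked Ddx3y lay between 0.33 and 0.87 (log2 relative to the 75th percentile) on all 16 arrays.

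Per3 4/4 replicate 2 and WT replicate 6 stood apart at some genes on chromosomes 2 and 11. Ppp1r16b, a regulatory subunit of protein phosphatase 1, lay at 1.35 in Per3 4/4 replicate 2 and between -1.18 and -0.72 in the other 7 Per3 4/4 arrays. In WT replicate 6 it lay at -1.15, against 0.20 to 1.21 in the other 7 WT arrays. Each of the 2 arrays thus sat at the level of the opposite genotype. Ifi47 on chromosome 11, an interferon-induced GTPase that is given here after its values were seen, had the same arrangement, with -5.52 in Per3 4/4 replicate 2 (others -3.93 to -2.45) and -3.70 in WT replicate 6 (others -5.22 to -4.48). Its difference between the genotypes was 0.94 (adjusted p 0.0442), and 1.33 without the 2 arrays (adjusted p 0.00591). The call was lost with scan day as a block (adjusted p 0.0592) and in 13 of 16 fits without 1 array. Rprd1b on chromosome 2, which encodes a protein that binds RNA polymerase II and was chosen after its values were seen, lay at 0.29 in Per3 4/4 replicate 2 (others 1.17 to 1.44) and at 1.51 in WT replicate 6 (others 0.12 to 0.78). The hypothalamus arrays of the same mice gave the same arrangement for Ppp1r16b, where Per3 4/4 replicate 2 lay at 0.10 (others -1.89 to -1.52) and WT replicate 6 at -1.98 (others -1.19 to -0.12). Other Ppp1r16b probes differed between the genotypes by -0.02 (adjusted p 0.889) and 0.45 (adjusted p 0.00659), against -1.29 (adjusted p 0.022) for the probe described, which became -1.83 without the 2 arrays. At Fbxo2 on chromosome 4, both arrays were on the side of their own label. Per3 4/4 replicate 2 (2.45) nevertheless lay below the other 7 there (3.01 to 3.57), and WT replicate 6 was at 2.22 (others 1.96 to 2.24). At Plod1, also on chromosome 4, Per3 4/4 replicate 2 (-2.41) was lowest of its genotype and WT replicate 6 (-2.47) highest. The same held at both Fbxo44 probes named, with 0.95 and 0.74 at one and 1.29 and 1.26 at the other. The cause was not tested.

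A total of 6696 of 29714 probes (22.5%) was called at an adjusted p under 0.05 by limma, 3980 higher (13.4%) and 2716 lower (9.14%) in Per3 4/4. The differences were small. Called probes had a median log2 difference of 0.40 in size, and 135 of them (2.02%) reached 2-fold, 21 higher and 114 lower. Counted with 1 probe per gene, the one with the highest mean level, 3566 of 15398 genes (23.2%) were called, 1966 higher (12.8%) and 1600 lower (10.4%), and 1045 (6.79%) were called with the scan day block as well. With median centring of the arrays in place of the 75th percentile the split turned, with 1871 probes higher and 3595 lower. Without Per3 4/4 replicate 2 and WT replicate 6, 4538 probes were called (2779 higher, 1759 lower).

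With scan day as a block, 2294 probes (7.72%) were called, 1456 higher (4.9%) and 838 lower (2.82%), and 2071 (6.97%) in both fits. On scan day 2 alone, with 3 Per3 4/4 and 5 WT arrays, 164 probes (0.552%) were called, 105 higher (0.353%) and 59 lower (0.199%). All 6696 probes kept their sign with the block, and 6689 on day 2 alone. Their median size was 0.29 with the block. Called in all 3 fits with 1 sign were 116 probes (0.39%), 75 higher (0.252%) and 41 lower (0.138%). The 8 Per3 4/4 arrays and the 8 WT arrays did not overlap at 1991 probes (6.7%), 1262 higher (4.25%) and 729 lower (2.45%). Adding the brightness of each array as a covariate left 132 calls, and adding scan day and brightness together left 0 by limma, with 2041 probes at an unadjusted p under 0.05. Of these 2 genotypes only Per3 4/4 had arrays on day 1, and its arrays were dimmer on average. The dimmest were replicates 6 and 7 of day 2 (324.5 and 431.8), against 692.5 to 977.3 on day 1. Genotype, scan day and brightness cannot be fully told apart.

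**Figure D1:**
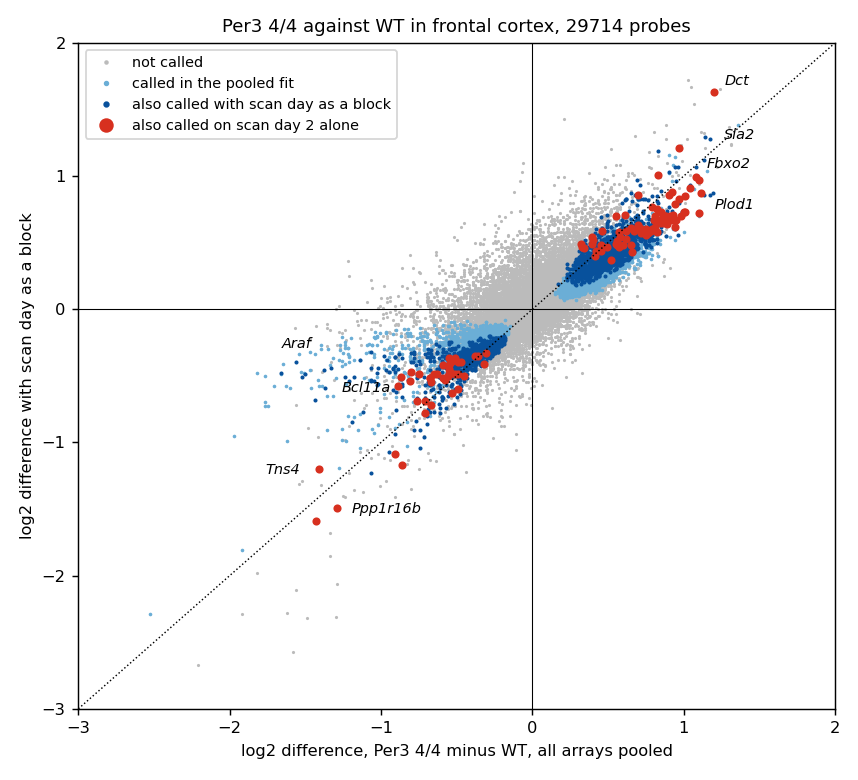
Each point is 1 of 29714 probes. The x axis gives the log2 difference of Per3 4/4 minus WT with all arrays pooled, and the y axis the same difference with scan day as a block. Pale blue marks probes called in the pooled fit, dark blue those also called with the block and red those also called on day 2 alone, and the dotted line marks equal values. The called probes keep their sign, and many of the largest lower values lie above the dotted line, which means that they shrink with the block.

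Among the probes called in all 3 fits were several genes of chromosome 4, the chromosome of Per3, and 3 of them are described here. Fbxo2 and Fbxo44 are adjacent, and Plod1 lies further from Per3. Atp13a2 (1.1), Clcn6 (0.91) and Disp3 (0.79) were also higher in all 3 fits, whereas Casz1 was lower (-0.67). Fbxo2, the substrate receptor of a ubiquitin ligase for glycoproteins in neurons, lay between 2.45 and 3.57 in Per3 4/4 (median 3.24) and between 1.96 and 2.24 in WT (median 2.08). The arrays did not overlap, and the log2 difference was 1.08 ± 0.14 (SE, adjusted p 0.000929), 0.99 with the block and 1.15 on day 2. Another Fbxo2 probe gave 0.92 (adjusted p 0.000929), whereas the brightest, A_52_P580912, gave 0.13 (adjusted p 0.542). Its relative Fbxo44 was at 0.95 to 1.78 in Per3 4/4 (median 1.45) and at 0.18 to 0.74 in WT (median 0.38), again without overlap, with a difference of 1.04 (adjusted p 0.00102). Plod1, a lysyl hydroxylase that modifies collagen, differed by 1.11 (adjusted p 0.00236). From Plod1 to Disp3, 8 of 13 tested genes were higher and 0 were lower, 7 of them also with the block, but the ends of that stretch were chosen after the values were seen. Between Disp3 and Per3, which are separated by 37 protein-coding genes, 7 of 29 tested genes were called, a share near the 23.2% of all genes. Chromosome 4 held 17 of the probes called in all 3 fits (1.22% of 1398), against at most 0.727% on any other chromosome.

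Genes elsewhere in the genome also separated the genotypes on every array. Grk2, which encodes a kinase of G protein-coupled receptors, lay between -1.71 and -0.96 in Per3 4/4 (median -1.39) and between -2.61 and -2.07 in WT (median -2.38). Its difference was 1.01 ± 0.20 (adjusted p 0.00222), 0.73 with the block and 0.81 on day 2. Other Grk2 probes disagreed, at 0.54 (adjusted p 0.00822) and -0.57 (adjusted p 0.0385). Camta2, a calmodulin-binding transcription activator, lay between -1.41 and -0.80 in Per3 4/4 (median -1.12) and between -2.30 and -1.94 in WT (median -2.10). The groups did not overlap. Both Camta2 probes were higher in Per3 4/4, by 1.0 (adjusted p 0.00142) and 0.82 (adjusted p 0.00297). Mgat5b, a glycosyltransferase of the brain, was likewise higher at both of its probes, by 0.98 (adjusted p 0.00291) and 0.71 (adjusted p 0.00176).

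Lower in Per3 4/4 were 4 genes with the same separation. Bcl11a, a zinc finger transcription factor of cortical projection neurons, lay between 0.94 and 2.30 in Per3 4/4 (median 2.03) and between 2.47 and 2.86 in WT (median 2.72). The lowest array was Per3 4/4 replicate 3, and the other 7 also lay below all WT arrays. The difference was -0.81 ± 0.17 (adjusted p 0.00304) and -0.54 with the block, and a second Bcl11a probe gave -0.09 (adjusted p 0.459). Chst12, a chondroitin sulfotransferase, was at -1.63 to -0.62 in Per3 4/4 (median -0.95) and at -0.54 to -0.10 in WT (median -0.21). Its 4 arrays of day 1 averaged -1.35 and the later 4 averaged -0.72, so that the difference of -0.80 (adjusted p 0.00336) became -0.47 with the block. Zfp960, a zinc finger protein, fell by 0.75 on the log2 scale (adjusted p 0.00122). Sh3bp1, a GTPase-activating protein for Rac, lay between -1.96 and -1.76 in Per3 4/4 and between -1.37 and -0.94 in WT, with no overlap. Its difference was -0.68 (adjusted p 0.00192), and its mean was -1.85 in the Per3 4/4 arrays of day 1 and also in those of the later days.

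**Figure D2:**
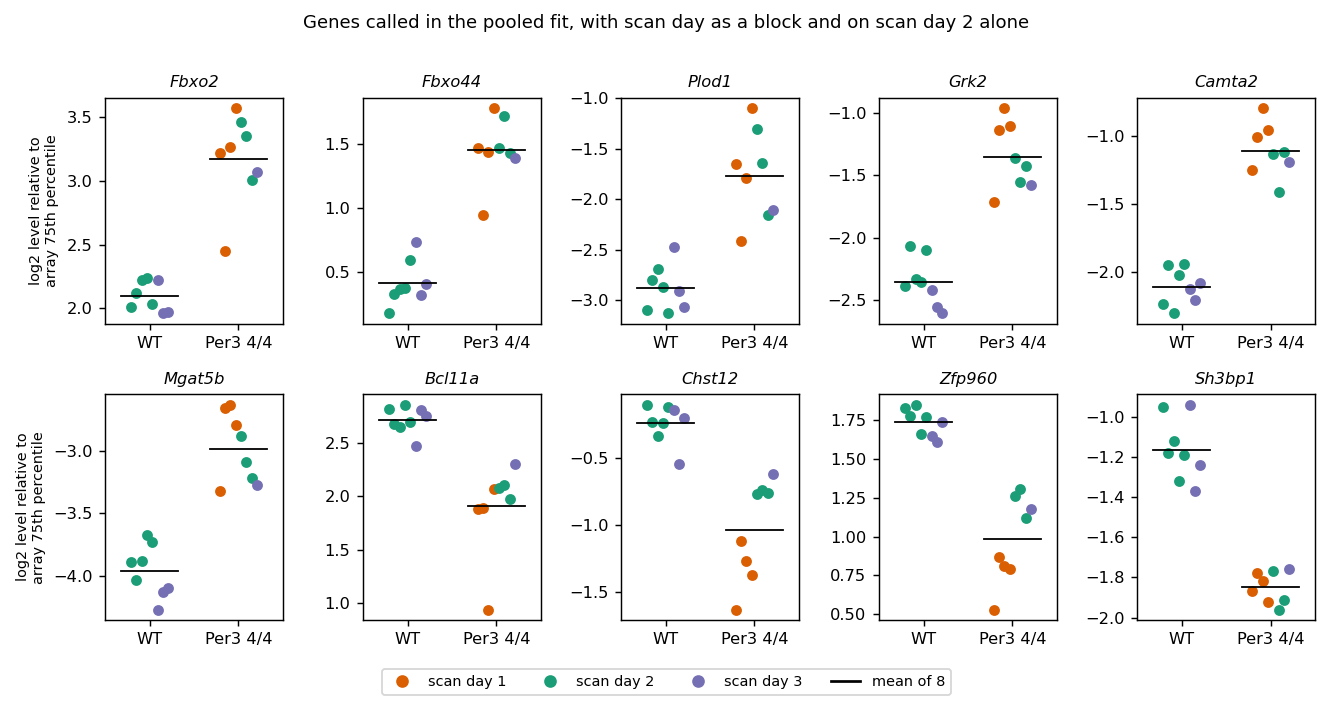
Level of 10 genes (log2 relative to the 75th percentile of the array, y axis) in each of 8 WT and 8 Per3 4/4 cortex arrays, coloured by scan day, with the mean of 8 as a line. Per3 4/4 lies above WT in the upper row and at Mgat5b and below it in the other 4 genes, without overlap, as for Camta2 at -1.41 to -0.80 against at most -1.94.

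Further genes with large higher levels were called in the pooled fit and with the block. Hes6, a basic helix-loop-helix protein of neuronal differentiation, was at -2.98 to -2.01 in Per3 4/4 (median -2.54) and at -3.99 to -3.41 in WT (median -3.60). The arrays did not overlap, and both probes were higher, by 1.17 (adjusted p 0.00328) and 0.49 (adjusted p 0.00275). Rapgef1, an exchange factor for the GTPase Rap1, was higher at both probes as well, by 1.13 (adjusted p 0.00221) and 0.47 (adjusted p 0.00155). Atp13a2, a lysosomal transporter whose loss causes a form of parkinsonism, was higher at both of its probes, by 2.14-fold (adjusted p 0.0049) and by 0.39 on the log2 scale (adjusted p 0.00624). It lies on chromosome 4, and the first of these probes was also called on day 2 alone. Fam13c was higher by 1.08 (adjusted p 0.00307) at one probe and lower by -0.28 (adjusted p 0.0163) at the other. Sla2, an adaptor of lymphocyte receptor signalling, differed by 1.17 (adjusted p 0.0188), and by 1.60 without the 2 arrays that stood apart. Olfr1170, an olfactory receptor gene, differed by 1.14 (adjusted p 0.0198).

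Dct, the melanin enzyme dopachrome tautomerase, had the largest higher difference among the genes named here, with a wide spread. It lay between -3.30 and -0.11 in Per3 4/4 (median -1.35) and between -2.96 and -1.92 in WT (median -2.59). Of the 8 Per3 4/4 arrays 5 were above all WT arrays and replicate 2 was below them all. The difference was 1.20 ± 0.36 (adjusted p 0.0211), 1.63 with the block and 1.46 without the 2 arrays that stood apart. The other Dct probe gave 0.97 (adjusted p 0.021). In hypothalamus the first probe differed by -0.24 (adjusted p 0.21) and the other by 0.31 (adjusted p 0.0906).

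Many of the largest lower differences came from probes that were far lower on the Per3 4/4 arrays of scan day 1 than on the others. Araf, a kinase of the RAF family, lay between -4.89 and -2.16 in Per3 4/4 (median -3.42) and between -2.13 and -1.60 in WT (median -1.97). No array overlapped, but the 4 day 1 arrays averaged -4.62 and the other 4 averaged -2.31. The difference was -1.56 (adjusted p 0.0248) over all arrays and -0.40 (adjusted p 0.0318) with the block, and -1.44 (adjusted p 0.0668) without the 2 arrays that stood apart. Leaving out Per3 4/4 replicate 1, 3 or 4 raised its adjusted p to between 0.0506 and 0.0566. E2f4, a member of the E2F family of cell cycle regulators, lay between -5.89 and -3.48 in Per3 4/4 and between -3.36 and -2.84 in WT, and its difference shrank from -1.50 to -0.49 with the block. Axin2, an inhibitor of Wnt signalling, shrank from -1.38 to -0.46. Cbx8, a Polycomb protein, shrank from -1.14 to -0.38. All 8 probes plotted by scan day were drawn from those called with the block, so their call in that fit was set by the choice. E2f4, Axin2 and Aff4 lost their calls without the 2 arrays that stood apart (adjusted p 0.0565, 0.0569 and 0.0586).

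Other probes of these genes often did not move with them. The other Araf probe differed by -0.12 (adjusted p 0.344). For Aff4, a scaffold of the super elongation complex, the probe with -1.33 stood against others at -0.07 to -0.11, none called. For Pdgfb, a growth factor chain, one probe gave -1.52 (adjusted p 0.0161) and the other 0.42 (adjusted p 0.0338). Tut4, which adds uridines to RNA, gave -1.21 and -0.52 at called probes and -0.24 and 0.07 at others. Virma, a part of the m6A methyltransferase complex, gave -1.18 and -0.29 at called probes and 0.16 at another. Both Zfp345 probes were lower, by -1.24 and -1.32 (adjusted p 0.00852 and 0.00774). Over all 1492 called genes with another tested probe, that other probe was called with the same sign in 518 (34.7%) and with the opposite sign in 142 (9.52%).

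**Figure D3:**
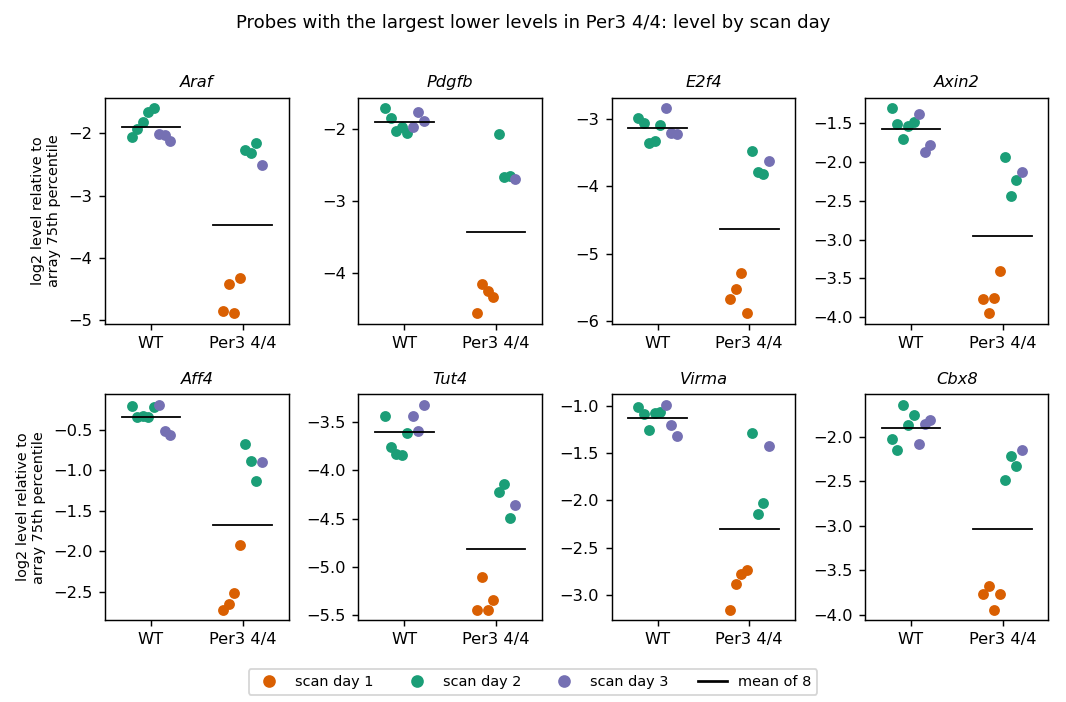
Level (log2 relative to the 75th percentile of the array, y axis) of 8 of the probes with the largest lower values, by genotype and scan day, with the mean of 8 as a line. The Per3 4/4 arrays of day 1 lie well below the other Per3 4/4 arrays, as for Araf with means of -4.62 and -2.31.

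Among the genes named were 6 with a probe well above background on at least 6 arrays of 1 genotype and on at most 1 of the other. Those lower in Per3 4/4 were Lce1i, 4921507P07Rik, Spin4, Ripply3 and Trp63, whose differences turned positive with normexp background correction, so no fold is given for them. The higher one was Tec, a tyrosine kinase, which was well above background on 6 Per3 4/4 arrays and 1 WT array. Its difference was 0.93 (adjusted p 0.0316) and stayed at 0.86 with normexp. The Tec call was lost with the block (adjusted p 0.0596) and without Per3 4/4 replicate 4, 6 or 7 or WT replicate 1 or 2 (adjusted p up to 0.0614). Differences also turned positive with normexp at Tns4, Zcchc8 and A930003A15Rik, which were well above background on 2, 6 and 5 Per3 4/4 arrays. Tns4, a focal adhesion protein, was well above background on all 8 WT arrays. It lay between -8.48 and -6.05 in Per3 4/4 and between -6.47 and -5.54 in WT. The groups overlapped, and the difference of -1.41 (adjusted p 0.00332) became 0.49 with normexp. Over all tested probes the median difference was 0.02, and it was -0.04 with median centring, -0.01 with quantile normalization and 0.23 with normexp.

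The functional groups were counted with 1 probe per gene and set against the background of all 15398 genes. Of these 12.8% were higher and 10.4% lower, with a median log2 difference of 0.02. The median of all genes relative to WT ran from -0.03 to 0.08 over the Per3 4/4 arrays. Over the WT arrays it ran from -0.01 to 0.01, so 5 Per3 4/4 arrays lay above all WT arrays and 1 below. Cytosolic ribosomal proteins, which build the subunits of the ribosome, were higher in 32 of 78 genes (41.0%) and lower in 0, with a median of 0.17. The median of the list relative to WT ran from 0.00 to 0.34 over the Per3 4/4 arrays and from -0.14 to 0.17 over the WT arrays, so the groups overlapped, and 4 Per3 4/4 arrays lay above all WT arrays. Rpl8 lay between 6.07 and 6.53 in Per3 4/4 (median 6.24) and between 5.60 and 5.92 in WT (median 5.73). It did not overlap and was higher by 0.51 ± 0.09 (adjusted p 0.00118), 0.39 with the block. Rpsa (0.55, adjusted p 0.00208) and Rpl3 (0.53, adjusted p 0.00459) were similar. With the block 13 ribosomal protein genes were higher and 0 lower, and 28 were higher without the 2 arrays that stood apart. The median stayed above 0 under all scalings (0.05 with quantile normalization to 0.17), but median centring left 10 higher and 1 lower, and quantile normalization 11 higher and 3 lower.

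Other parts of the protein synthesis machinery were split. Of 65 translation factors 12 were higher (18.5%) and 7 lower (10.8%), with a median of 0.05. With the block 5 were higher and 2 lower, and median centring turned the split to 5 higher and 9 lower, both with a median of -0.01. Eef2, the elongation factor that moves the ribosome along the messenger, lay between 4.26 and 4.69 in Per3 4/4 (median 4.44) and between 3.43 and 3.79 in WT (median 3.65). No arrays overlapped, and all 3 Eef2 probes were higher, by 0.81 (adjusted p 0.00115), 0.88 (adjusted p 0.00313) and 0.99 (adjusted p 0.0016). The initiation scaffold Eif4g1 was higher (0.62, adjusted p 0.0055), while the cap-binding protein Eif4e (-0.35, adjusted p 0.0179) and the initiation factor subunit Eif3m (-0.36, adjusted p 0.00304) were lower. With the block Eif4g1 was at 0.38 (adjusted p 0.0561) and Eif4e at -0.24 (adjusted p 0.131), so both calls were lost. A second probe of Eif4g1 (0.21) and of Eif4e (-0.01) was not called. Aminoacyl tRNA synthetases, which charge tRNAs, were higher in 6 of 20 genes and lower in 1 (median 0.15), among them Vars (0.45, adjusted p 0.0137) and Farsa (0.38, adjusted p 0.0085), and 0 were called by limma with the block (6 at an unadjusted p under 0.05). Median centring gave 0 higher and 2 lower. Mitochondrial ribosomal proteins were higher in 7 of 78 (8.97%) and lower in 10 (12.8%), with a median of -0.06. Examples were Mrps27 (0.40, adjusted p 0.0156) and Mrpl18 (-0.32, adjusted p 0.00459). The block left 0 higher and 2 lower, and median centring 0 and 13.

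**Figure D4:**
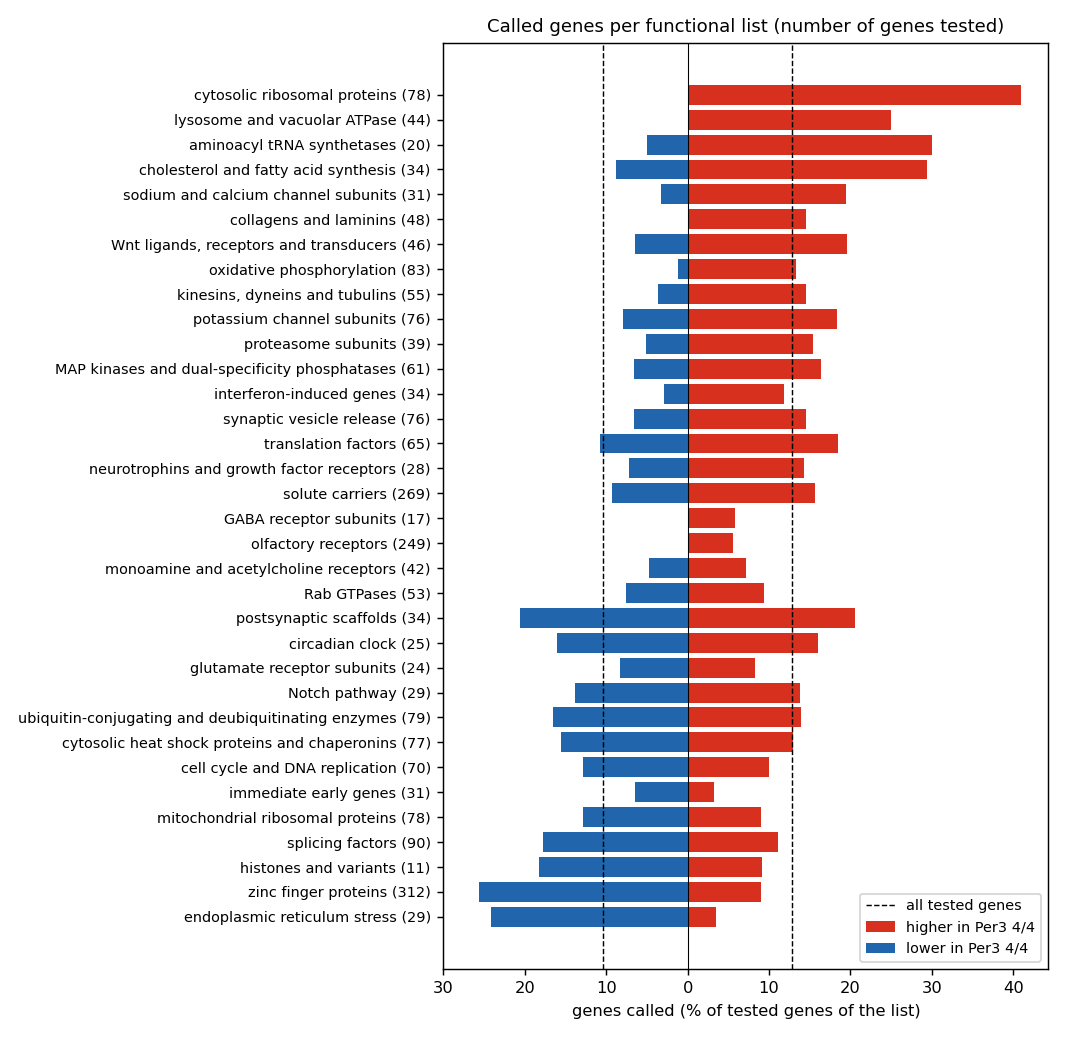
Share of the tested genes of each functional list (number of genes in parentheses) that was called higher (red, to the right) or lower (blue, to the left) in Per3 4/4 cortex, in percent of the list. The dashed lines mark all tested genes, 12.8% higher and 10.4% lower. Cytosolic ribosomal proteins reach 41.0% higher and zinc finger proteins 25.6% lower.

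Protein folding and degradation genes moved in both directions. In the list of endoplasmic reticulum (ER) stress genes 7 of 29 were lower (24.1%) and 1 was higher, with a median of -0.07 that was below 0 under all scalings. Hyou1, a chaperone of the ER, lay between 1.45 and 1.79 in Per3 4/4 (median 1.70) and between 2.07 and 2.45 in WT (median 2.18). It did not overlap and fell by 0.55 on the log2 scale (adjusted p 0.00289). The ER co-chaperone Dnajb9 was lower by -0.29 (adjusted p 0.0105) and the degradation adaptor Sel1l by -0.33 (adjusted p 0.00752), but another Sel1l probe was higher (0.31, adjusted p 0.0415). The single higher gene was Ddit3, a transcription factor of ER stress (0.39, adjusted p 0.00262). With the block 4 were lower and 1 higher, and without the 2 arrays that stood apart 3 were lower and 1 higher.

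Cytosolic heat shock proteins and chaperonins were higher in 10 of 77 genes (13%) and lower in 12 (15.6%), with a median of -0.03. The counts were 4 and 9 with the block and 3 and 14 with median centring. Hspa4l, a nucleotide exchange factor of the HSP70 system, was lower by -0.48 (adjusted p 0.00185), but its other probes gave -0.15 each and were not called. Dnajb2, a neuronal co-chaperone, was higher by 0.53 (adjusted p 0.00158). Ubiquitin-conjugating and deubiquitinating enzymes were higher in 11 of 79 (13.9%) and lower in 13 (16.5%). The mitochondrial deubiquitinase Usp30 was at 0.67 (adjusted p 0.00584) and the conjugating enzyme Ube2r2 at -0.47 (adjusted p 0.00148). The block left 5 of the enzymes of this list higher and 6 lower, and median centring 3 and 14. Of 39 proteasome subunits 6 were higher (15.4%) and 2 lower (5.13%). With the block 0 were higher and 1 lower, and with median centring 0 and 2. Psmc3, an ATPase of the regulatory particle, differed by 0.54 (adjusted p 0.0132; 0.32 with the block, adjusted p 0.127) and Psma1, of the core particle, by -0.41 (adjusted p 0.00179).

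Lysosomal and vacuolar ATPase genes were higher in 11 of 44 (25.0%) and lower in 0, with a median of 0.18. The median of the list ran from 0.01 to 0.27 over the Per3 4/4 arrays and from -0.11 to 0.05 over the WT arrays. Above all WT arrays lay 7 Per3 4/4 arrays, against 5 for the median of all genes. Gaa, the lysosomal enzyme that degrades glycogen, was higher by 0.51 (adjusted p 0.00332). Tfeb, a transcription factor of lysosomal genes, differed by 0.52 (adjusted p 0.0333), a call that was lost in 9 of 16 fits that left out 1 array. With the block 1 gene was higher, without the 2 arrays that stood apart 4 were, and median centring gave 2 higher and 2 lower, although the median stayed above 0 under all scalings.

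Genes of RNA processing and of zinc finger proteins were lower more often than higher. Of 312 zinc finger proteins, a large family of DNA-binding regulators, 80 were lower (25.6%) and 28 higher (8.97%), with a median of -0.13 that became 0.03 with normexp, where 73 were higher and 52 lower. The median of the list ran from -0.15 to -0.03 over the Per3 4/4 arrays and from -0.05 to 0.04 over the WT arrays. Below all WT arrays lay 7 Per3 4/4 arrays, against 1 for the median of all genes. Zfp980 was lower (-0.94, adjusted p 0.018), but by -0.33 with the block (adjusted p 0.102), and Zfp251 (0.80, adjusted p 0.004) and Zfp180 (0.74, adjusted p 0.00308) were higher. With the block 24 were lower and 13 higher, and without the 2 arrays that stood apart 54 and 23. Splicing factors were lower in 16 of 90 genes (17.8%) and higher in 10 (11.1%), with a median of -0.11 that was below 0 under all scalings. The block left 7 lower and 1 higher. Sf3b4, a subunit of the U2 particle, was lower by -0.41 (adjusted p 0.00944), and Prpf19, an activator of the spliceosome, was higher by 0.67 (adjusted p 0.00676). Srsf4, a serine- and arginine-rich splicing factor, was lower at one probe (-0.42, adjusted p 0.00268) and higher at another (0.33, adjusted p 0.00846). Histones and variants were called in 3 of 11 genes, 1 higher and 2 lower, and in 0 by limma with the block (1 at an unadjusted p under 0.05).

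**Figure D5:**
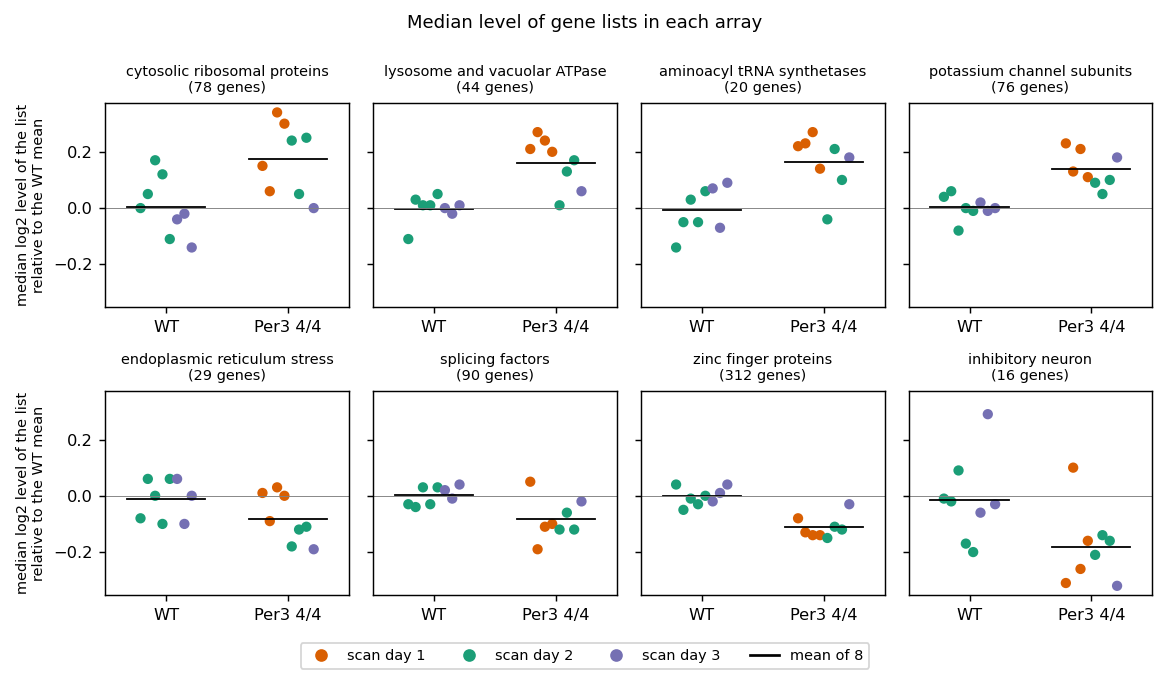
Median log2 level of 8 gene lists in each of 8 WT and 8 Per3 4/4 arrays, relative to the WT mean of each gene (y axis) and coloured by scan day, with the mean of 8 as a line. The lysosomal, potassium channel and aminoacyl tRNA synthetase lists each have 7 Per3 4/4 arrays above all WT arrays. The zinc finger list has 7 below them, against 6 below for splicing factors and 4 on 1 side for the other lists. The median of all genes, not plotted, has 5 above and 1 below.

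Among ion channels, potassium channel subunits were higher in 14 of 76 genes (18.4%) and lower in 6 (7.89%), with a median of 0.13 that was above 0 under all scalings. Median centring gave 6 higher and 6 lower. Kcnh3, a voltage-gated channel of the forebrain, lay between 0.45 and 1.18 in Per3 4/4 (median 0.90) and between -0.06 and 0.16 in WT (median 0.02). The arrays did not overlap, and the difference was 0.78 ± 0.14 (adjusted p 0.00148), 0.56 with the block. Kcnk12 was also higher (0.84, adjusted p 0.00741; 0.58 with the block, adjusted p 0.0668). Lower were Kcna4, an A-type channel subunit (-0.51, adjusted p 0.0161), and Kcnv1, a silent subunit (-0.44, adjusted p 0.0143), whose other probe was not called (-0.12). With the block both calls were lost, at -0.27 for Kcna4 (adjusted p 0.149) and -0.28 for Kcnv1 (adjusted p 0.146). With the block 4 subunits were higher and 2 lower. Sodium and calcium channel subunits were higher in 6 of 31 (19.4%) and lower in 1 (3.23%), with 4 and 2 with the block. Cacna1a, the pore of P/Q-type calcium channels, was higher at both probes (0.60 each, adjusted p 0.00155 and 0.00437), as was the auxiliary subunit Cacnb3 (0.56, adjusted p 0.00295).

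Neurotransmitter receptors were called at shares below the 23.2% of all genes. Of 24 glutamate receptor subunits 2 were higher, Grin2c (0.49, adjusted p 0.00891) and Grid1 (0.39, adjusted p 0.0174), and 2 were lower. One of the lower genes was Grin2a, an NMDA receptor subunit, which lay between -1.01 and -0.26 in Per3 4/4 (median -0.65) and between -0.67 and 0.23 in WT (median -0.07). Its groups overlapped, and the difference was -0.52 (adjusted p 0.0114). The calls of Grin2a (adjusted p 0.089) and Grid1 (adjusted p 0.104) were lost with the block, which left 1 glutamate receptor subunit higher. Of 17 GABA receptor subunits only Gabbr1, a subunit of the GABA-B receptor, was called (0.24, adjusted p 0.00957), with its 3 probes all higher (0.24 to 0.53), and with the block it was not (adjusted p 0.0592). Monoamine and acetylcholine receptors were higher in 3 of 42 and lower in 2. Chrm4, a muscarinic receptor, was higher at one probe (0.43, adjusted p 0.0035) and at -0.02 at another. Chrna6, a nicotinic subunit, was lower by -1.63 (adjusted p 0.0177) and by -0.58 with the block (adjusted p 0.124). The block left 2 of these receptors higher and 0 lower.

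At the synapse, postsynaptic scaffold genes were called in both directions, with 7 of 34 higher and 7 lower (41.2% called, against 23.2% of all genes). Dlg4, which encodes the scaffold PSD-95, lay between -0.57 and 0.58 in Per3 4/4 (median -0.02) and between -0.96 and -0.38 in WT (median -0.72). Of the 8 Per3 4/4 arrays 7 lay above all WT arrays, and both probes were higher, by 0.70 (adjusted p 0.0022) and 0.79 (adjusted p 0.00115). Homer2, a scaffold that binds metabotropic glutamate receptors, was higher without overlap by 0.72 (adjusted p 0.00118) and at another probe by 0.90 (adjusted p 0.000929), with a further probe at 0.30 (adjusted p 0.0735). Shank2 (0.51, adjusted p 0.0029) was higher and the actin regulator Abi1 (-0.35, adjusted p 0.00524) lower. With the block 5 scaffolds were higher and 2 lower, and with median centring 5 and 9. Genes of synaptic vesicle release were higher in 11 of 76 (14.5%, against 12.8% of all genes) and lower in 5 (6.58%). The counts were 4 and 2 with the block and 7 each way with median centring. The SNARE protein Stx1a was higher (0.56, adjusted p 0.00641) and Snap29 lower (-0.37, adjusted p 0.00118), and Napa, which takes part in SNARE disassembly, was higher at one probe (0.52, adjusted p 0.00157) and lower at another (-0.28, adjusted p 0.0434).

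Genes of transport within the cell were called at shares below the 23.2% of all genes. Kinesins, dyneins and tubulins were called at 18.2% and Rab GTPases at 17%. Of the first list 8 of 55 genes were higher (14.5%) and 2 lower (3.64%), with 4 and 0 with the block. Kif17, a dendritic motor, was higher at all 3 probes, by 0.51 to 0.59 (adjusted p 0.0048 to 0.0146), although its brightest probe was at 0.28 with the block (adjusted p 0.0543). Of 53 Rab GTPases 5 were higher, Rab24 among them (0.45, adjusted p 0.00474), and 4 were lower, Rab40b among them (-0.50, adjusted p 0.00403). The block left 2 higher and 1 lower, and median centring gave 1 and 8. A second probe of Rab24 (-0.15) and of Rab40b (0.06) was not called.

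Genes of cholesterol and fatty acid synthesis were higher in 10 of 34 (29.4%) and lower in 3, with a median of 0.04 that fell to -0.01 with median centring. Lss, which forms lanosterol, lay between -1.44 and -1.05 in Per3 4/4 (median -1.26) and between -1.96 and -1.70 in WT (median -1.83). Its arrays did not overlap, and both probes were higher, by 0.58 (adjusted p 0.0035) and 0.88 (adjusted p 0.00289). The earlier enzyme Mvd was also higher (0.55, adjusted p 0.00588), whereas Dhcr7, an enzyme late in the pathway, was lower (-0.31, adjusted p 0.00645). With the block 4 were higher and 2 lower, and with median centring 5 and 6. Oxidative phosphorylation genes were higher in 11 of 83 (13.3%, near the 12.8% of all genes) and lower in 1 (1.2%). Their median of 0.06 turned to -0.02 with quantile normalization. The counts turned too, to 6 higher and 8 lower with quantile normalization and 2 and 5 with median centring, and the block left 2 and 0. The cytochrome oxidase subunit Cox8a was higher by 0.42 (adjusted p 0.00115), and Cox6a1 by 0.52 (adjusted p 0.00139), which became -0.03 with quantile normalization.

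Among 269 solute carriers 42 were higher (15.6%) and 25 lower (9.29%). Median centring turned the split, with 16 higher and 32 lower, and the block left 7 and 8. Slc30a3, which loads zinc into synaptic vesicles, lay between 0.66 and 1.19 in Per3 4/4 (median 0.75) and between -0.39 and 0.25 in WT (median 0.11). The groups did not overlap, and the difference was 0.79 ± 0.17 (adjusted p 0.0035). Slc27a3, a fatty acid transport protein, was higher by 0.79 (adjusted p 0.00152). Slc2a1, the glucose transporter of the blood-brain barrier, was lower by -0.60 (adjusted p 0.0167), with a mean of 3.34 in the day 1 arrays of Per3 4/4 and 4.03 in the later ones, and the call was lost with the block (-0.27, adjusted p 0.181). Collagens and laminins were higher in 7 of 48 (14.6%, against 12.8% of all genes) and lower in 0. Among them were Col9a3 (0.62, adjusted p 0.0107) and Lamb2 (0.55, adjusted p 0.0146). With the block 0 of the list were called by limma (9 at an unadjusted p under 0.05).

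Signalling and growth lists held several genes with large differences. Fgfr1, a receptor for fibroblast growth factors, lay between -0.95 and -0.36 in Per3 4/4 (median -0.53) and between -1.67 and -1.22 in WT (median -1.36). It did not overlap, and all 3 probes were higher, by 0.58 to 0.80 (adjusted p 0.00118 to 0.00394). In its list of neurotrophins and growth factor receptors 4 of 28 were higher (14.3%) and 2 lower (7.14%), with 1 and 0 with the block. Fgfr3 was higher at 3 probes (0.50 to 0.71). Wnt ligands, receptors and transducers were higher in 9 of 46 (19.6%) and lower in 3 (6.52%), with Wnt4 at 0.64 (adjusted p 0.00147) and Wnt2 at -0.57 (adjusted p 0.0119). With the block 2 were higher and 2 lower, and median centring gave 4 and 6. Notch pathway genes were higher in 4 of 29 (13.8%) and lower in 4 (13.8%), with 3 and 1 with the block. Rfng, a glycosyltransferase that modifies Notch, was higher by 0.96 (adjusted p 0.00526) and Maml1, a coactivator of Notch, lower by -0.52 (adjusted p 0.00507).

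Of 61 MAP kinases and dual-specificity phosphatases 10 were higher (16.4%) and 4 lower (6.56%), and the block left 1 higher and 2 lower. Dusp28 was at 0.48 (adjusted p 0.000929) and the upstream kinase Map4k5 at -0.34 (adjusted p 0.00694). Cell cycle and DNA replication genes were higher in 7 of 70 (10%) and lower in 9 (12.9%). The block left 2 of this list higher and 1 lower, and median centring gave 2 and 10. The replication helicase subunit Mcm3 was at 0.74 (adjusted p 0.00474). The activity-induced kinase Plk2 was at -0.60 (adjusted p 0.0208), and at -0.26 with the block (adjusted p 0.167). Interferon-induced genes were called in 5 of 34 (14.7%, below the 23.2% of all genes), 4 higher and 1 lower (1 and 0 with the block). Tgtp1, an interferon-induced GTPase, lay between -3.28 and -0.87 in Per3 4/4 (median -2.17) and between -3.54 and -2.36 in WT (median -3.17). Its groups overlapped, the difference was 0.94 (adjusted p 0.0129), and another probe was not called (-0.35). Olfactory receptor genes were tested in 249 of the 887 on the array. Of those tested 14 were higher (5.62%, below the 12.8% of all genes) and 0 lower. With normexp 232 were higher, and there the median of all probes also rose.

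Immediate early genes, which neuronal activity induces and which rise with wakefulness, were called in 3 of 31. This was 9.68%, below the 23.2% of all genes. Egr3 was higher (0.47, adjusted p 0.0206; adjusted p 0.101 with the block). Jun lay between 0.04 and 0.82 in Per3 4/4 (median 0.33) and between 0.77 and 1.08 in WT (median 0.90). Of the 8 Per3 4/4 arrays 6 lay below all WT arrays, and Jun was lower by -0.53 (adjusted p 0.00343), -0.49 with the block and -0.60 without the 2 arrays that stood apart. Homer1 was lower at its brightest probe (-0.24, adjusted p 0.0309), and 2 other probes were at 0.27 and 0.14, not called. The Homer1 call was lost without Per3 4/4 replicate 4 or 5 or WT replicate 1, 5 or 8, with adjusted p of up to 0.0627.

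Of 25 circadian clock genes 4 were higher and 4 lower (32% called, against 23.2% of all genes). Cry2, a repressor of the clock, lay between 1.46 and 1.94 in Per3 4/4 (median 1.74) and between 1.31 and 1.43 in WT (median 1.37). The arrays did not overlap, and both probes were higher, by 0.35 (adjusted p 0.00457) and 0.59 (adjusted p 0.00218). Ciart, another repressor, lay between -2.64 and -1.56 in Per3 4/4 (median -2.28) and between -1.72 and -1.05 in WT (median -1.52). Its groups overlapped by 1 Per3 4/4 array, and the difference was -0.75 (adjusted p 0.0185) and -0.36 with the block (adjusted p 0.1). Bhlhe41, a repressor also known as Dec2, was higher by 0.30 (adjusted p 0.0127) and the nuclear receptor Nr1d2 lower by -0.23 (adjusted p 0.00932). Nr1d1 (0.42, adjusted p 0.0418), Dbp (0.29, adjusted p 0.0456), Clock (-0.31, adjusted p 0.0395) and Timeless (-0.26, adjusted p 0.0408) lost their calls in 9, 12, 13 and 9 of the 16 fits without 1 array, and Timeless turned to 0.06 with normexp. Cry2, Bhlhe41 and Nr1d2 were the 3 called with the block. Per3 itself was higher at its 1 probe by 0.41 (adjusted p 0.0382), by 0.34 with the block (adjusted p 0.175) and by 0.10 on day 2, and its call was lost in 10 of 16 fits without 1 array.

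CLOCK and BMAL1 bind the E-box CACGTG, whose letters are the same on both strands. In the RefSeq promoters (build GRCm38.p6, from 250 bases before to 50 after each gene start), 5 of the 20 clock genes with a promoter held it, against 2187 of 27025 promoters (8.09%). Of the called clock genes, Bhlhe41 and Ciart were the ones with a match, and they moved in opposite directions. The windows are shown because they are the E-boxes of called clock genes, with the motif in capitals.
Bhlhe41, chr6:145865558-145865583, minus strand: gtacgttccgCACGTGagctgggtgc
Ciart, chr3:95882329-95882354, minus strand: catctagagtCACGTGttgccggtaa
Ciart, chr3:95882271-95882296, minus strand: cagggggaggCACGTGcagaaccgca
Ciart, chr3:95882257-95882282, minus strand: tgcagaaccgCACGTGtctgggaggg

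Cell type markers held calls in lists of neurons, glia and vessels. Of all genes 23.2% were called, 12.8% higher and 10.4% lower. Inhibitory neuron markers were lower in 3 of 16 genes and higher in 0 (median -0.17), with 1 lower with the block. The 18.8% called was below the share of all genes, although all of it was lower. Lhx6, a transcription factor of interneurons, lay between -0.39 and 0.13 in Per3 4/4 (median -0.19) and between 0.13 and 0.69 in WT (median 0.28). The groups met at 0.13, and the difference was -0.56 ± 0.12 (adjusted p 0.00373), -0.45 with the block. The GABA-synthesizing enzymes Gad2 (-0.47, adjusted p 0.0217) and Gad1 (-0.29, adjusted p 0.0303) were lower at their brightest probes, and their other probes gave -0.28 and -0.29 without a call. The Gad1 call was lost without Per3 4/4 replicate 3 or WT replicate 1, 3 or 7 (adjusted p up to 0.0646). Striatal markers, which share GABA neurons with this list, had a median of -0.56 with 0 of 12 called by limma (1 at an unadjusted p under 0.05), and a median of -0.95 with 1 called and 8 at an unadjusted p under 0.05 without the 2 arrays that stood apart. Their summed level, in multiples of the 75th percentile, ran from 20.9 to 77.9 over Per3 4/4 arrays and from 28.4 to 167 over WT arrays, and their part in the lower Gad1 and Gad2 was not tested. In bulk tissue, fewer cells of a type and less RNA per cell cannot be told apart.

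Excitatory cortical neuron markers were split, with 3 of 18 higher and 2 lower (27.8% called, against 23.2% of all genes). Emx1, a transcription factor of the dorsal forebrain, lay between -0.35 and 0.25 in Per3 4/4 (median -0.13) and between -1.02 and -0.43 in WT (median -0.60). It did not overlap and was higher by 0.54 (adjusted p 0.00345). Nrgn was higher (0.32, adjusted p 0.0165) but at -0.04 with quantile normalization. Tbr1 (-0.42, adjusted p 0.0121) and Foxp2 (-0.95, adjusted p 0.0161), transcription factors of deep-layer neurons, were lower. Astrocyte markers were higher in 2 of 15 (13.3%), Aldoc (0.43, adjusted p 0.0032) and Fgfr3. Endothelial and pericyte markers were lower in 2 of 16 (12.5%), Cdh5 among them (-0.49, adjusted p 0.0141), whose other probe was at 0.09. With the block 0 of them were called by limma (1 at an unadjusted p under 0.05). Oligodendrocyte precursor markers were higher in 2 of 8 (25.0%), the sialidase gene Neu4 (0.74, adjusted p 0.0142) and C1ql1 (0.65, adjusted p 0.0442), and neither was called with the block. Of choroid plexus markers 1 of 7 (14.3%) was higher, the folate receptor gene Folr1 (0.33, adjusted p 0.0389). Of olfactory bulb markers 1 of 10 (10%) was higher, the calcium-binding protein gene Calb2 (0.65, adjusted p 0.0479). Neither Folr1 nor Calb2 was called with the block. C1ql1, Folr1 and Calb2 are named here after their values were seen. Oligodendrocyte (14), microglia (14), blood (6), meninges (12) and thalamus (9) markers held 0 calls by limma, with at most 1 gene of a list at an unadjusted p under 0.05.

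Of 148 probes chosen as named genes, 51 lost their call with scan day as a block, with adjusted p of 0.0543 to 0.35. Besides those given above, these included Stx1a, Homer1, Farsa, Vars, Prpf19, Mrps27, Tfeb, Col9a3, Lamb2, Fgfr3, Nrgn, Gad1, Gad2 and Cdh5. Without the 2 arrays that stood apart, 18 lost it, with adjusted p of 0.05 to 0.128. Besides Araf, E2f4, Axin2 and Aff4, these included Per3, Nr1d1, Dbp, Ciart, Clock and Timeless of the clock genes, and Chrna6, Trp63, Mrps27, Eif4e, Tfeb and Plk2.

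The same mice were measured in hypothalamus, where the comparison called 4628 of 30735 probes (15.1%), with 2534 higher (8.24%) and 2094 lower (6.81%) in Per3 4/4. The hypothalamus array of each mouse had the same scan day and slide as its cortex array. Both comparisons thus share 1 layout of genotype, day and slide, and like values in them are not independent. Per3 4/4 replicates 6 and 7 were the dimmest in hypothalamus too (307.2 and 502.3). Many of the cortical genes had values of like size there. Fbxo2 differed by 1.06, Plod1 by 1.15, Grk2 by 0.87 and Eef2 by 0.67, against 1.08, 1.11, 1.01 and 0.81 in cortex. Some genes had other values, such as Tbr1 with 0.89 against -0.42 and Lhx6 with -0.03 against -0.56. A test of the difference between the tissues called 1 of 31227 probes (0.0032%; 1562 at an unadjusted p under 0.05), A_52_P876147, which has no symbol here. It was lower in Per3 4/4 hypothalamus (-4.29 against -3.68, adjusted p 0.0104) and not well above background in cortex.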

How the data were processed

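RNA from frontal cortex blocks was labelled with Cy3 and hybridised to 1-colour Agilent 4x44K mouse arrays, whose annotation used build mm9. Per the file headers, the authors' scanner files hold intensity values that Feature Extraction 10.7.1.1 had corrected for background. A table for the whole series, also deposited, gives the authors' own normalized log2 values and served as an alternative. Here log2 of the processed intensity minus its 75th percentile per array was taken, with 48 to 172 outlier spots per array set as missing and spots of 1 probe averaged, which makes every value relative to the other transcripts on that array. The precision is limited by 8 arrays per group and by dim probes.

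Probes were tested where at least 6 of the 8 arrays of 1 genotype were well above background, with limma 3.58.1 in R 4.3.3, with 3 genotype means over 24 cortex arrays and Benjamini-Hochberg adjustment, and were called at an adjusted p under 0.05. The fit was tested on simulated data. The difference between tissues was tested on differences within each mouse. RefSeq accessions named 27668 of 41174 probes (67.2%), for 18883 genes, and probes without such a match are given by probe name. For lists, the probe with the highest mean over the 24 cortex arrays stood for a gene.

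The genes named were drawn, by absolute log2 difference in each direction, from up to 10 probes called also with the scan day block, up to 10 called in all 3 fits, up to 5 well above background on at least 6 arrays of 1 genotype and at most 1 of the other, and up to 3 called members of each list, together with Per3, the called clock genes and the probe that differed between tissues. The members and lists were chosen with earlier results of these data known. Alternatives were scan day, slide, replicate number or brightness in the fit, other scalings, normexp (offset 50), other filters, the methods' t-test and leaving out arrays. Those leaving out the day 1 arrays or the 2 arrays that stood apart, combining day with brightness or leaving out arrays under the day block were added after seeing the data. The Per3 5/5 comparison shares the WT arrays and was not described. A few genes that these rules name are not reported here.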

Additional observations from a re-analysis of the deposited data

Results flagged for a closer look

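In 17 of 296 groups of 8 arrays examined (5.74%), 1 array lay far from the other 7, measured by its gap to the nearest array as a share of the group's range. Chance gives about 1 in 20 such groups. Among Per3 4/4 arrays, replicate 2 was far from the rest for Ppp1r16b (1.35 against -0.72, share 0.817), Sla2 (-5.04 against -3.88, share 0.566) and Fbxo44 (0.95 against 1.39, share 0.53). Replicate 3 was far from the rest for Bcl11a (0.94 against 1.88, share 0.691) and Chrm4 (-2.83 against -3.35, share 0.681). Napa in replicate 5 (share 0.606), Zfp251 in replicate 7 (share 0.552) and Rab10, a GTPase of vesicle transport, in replicate 8 (share 0.594) were the others.

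Among WT arrays, replicate 6 was far from the rest for Ppp1r16b (-1.15 against 0.20, share 0.574) and Dbp (4.63 against 4.91, share 0.529). Replicate 3 was high for Kcna4 (share 0.707) and Rpl3 (share 0.603), and replicate 4 was high for Spin4 (share 0.684) and low for Srsf4 (share 0.526). Replicate 1 was low for Prpf19 (0.04 against 0.36, share 0.597) and Eif4g1 (share 0.551), and replicate 2 was high for Mvd (0.08 against -0.14, share 0.597).

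For 1 probe, A_52_P876147, the genotype difference itself differed between the tissues. The cortex difference minus the hypothalamus difference was 1.13 ± 0.17 on the log2 scale (SE, adjusted p 0.0303 by limma). In cortex the probe lay at -8.50 ± 0.34 in Per3 4/4 and -9.02 ± 0.25 in WT (SD), not well above background.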

How the results depend on the processing

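The number of called probes (6696 in the pooled fit) fell to 2294 with scan day as a block, 164 on day 2, 0 with slide as a fixed block (5849 at an unadjusted p under 0.05) and 132 with brightness as a covariate, and rose to 16258 with normexp. Of the alternatives added after seeing the data, leaving out the day 1 arrays of Per3 4/4 gave 752, the block without the 2 dimmest arrays 760, the block without the 2 arrays that stood apart 1876, and day with brightness 0 (2041 at an unadjusted p under 0.05). The other alternatives lay between 4538 and 8942, and leaving out 1 array gave 5080 to 6754. With the replicate number as a block, 6899 were called, but the deviations of same-numbered arrays correlated between -0.337 and 0.221, so the numbers do not pair the mice. Of 148 named probes, 97 stayed called with the scan day block, 23 on day 2, 3 with brightness and 0 with slide fixed, and 132 stayed called in all 16 fits without 1 array. Some of the 148 were named because they were called with the block or in all 3 fits, which raises the first 2 counts. Of all 6696 called probes 2071 (30.9%) were called with the block as well, and 116 in all 3 fits. Signs turned with normexp for Tns4 (0.49), Lce1i (0.59), Zcchc8 (0.38), A930003A15Rik (0.43), 4921507P07Rik (0.50), Spin4 (0.61), Ripply3 (0.55), Trp63 (0.56) and Timeless (0.06), and with quantile normalization for Cox6a1 (-0.03) and Nrgn (-0.04). With day and brightness together they turned for 4921507P07Rik (0.43), Ripply3 (0.14), Trp63 (0.24), Zfp980 (0.05) and Klc2 (-0.02). For the tissue difference (1 probe), the day block, quantile normalization and the replicate block gave 0, normexp 89, median centring 1, and leaving out 1 array 0 to 1. The causes were not tested. Dim probes limit all of this, since 8.43% of the dimmest 7429 probes were called, against 26.9% of the brightest 7429.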
